A study of Mus musculus with 9 samples.

Results

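Naive CD4+ T cells, the helper T cells that have not yet met antigen, were compared after 20 h of culture without interleukin-1 beta (IL-1b) and as freshly prepared cells. The libraries were chosen by their titles, 3 of fresh cells and 3 of cultured cells, which makes 6 of the 9 libraries of the series. All cells came from the lymph nodes of wild-type (WT) C57BL6/J mice, and the labels give "no treatment" for both groups. The remaining 3 libraries, whose cells received 10 ng/mL of recombinant IL-1b during their 20 h of culture, share the estimate of the spread and are cited only beside values of the 6. The sources used here do not give the culture medium, any added cytokines, or the number, age and sex of the animals.

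Naive T cells are kept alive and at rest in the lymph node by interleukin-7, which signals through the common gamma chain and STAT5, and by weak contacts between the T cell receptor and self peptides on MHC molecules. Interferon at low levels keeps a basal set of antiviral genes on. Immediate early genes and inducible heat shock genes are known to be switched on within minutes when a tissue is dissected and its cells are dispersed, and their messengers are short-lived.

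Polyadenylated RNA was sequenced, and the levels below are CPM (each library's counts scaled to a common total by the TMM method), from the estimated counts that the authors deposited. The 9 libraries held 13518818 to 23056660 counts, so that 3 counts in a library correspond to 0.130 to 0.222 CPM. A value after ± is the SD over 3 libraries for a level. For a log2 fold change, which is cultured minus fresh throughout, it is an approximate error worked back from the test statistic. That error is not the standard error of the fitted coefficient, and it is too small where a group holds few counts. Each gene was tested with the quasi-likelihood method of edgeR, its p-value was adjusted over all genes tested by the Benjamini-Hochberg method, and a gene is said to have risen or fallen where its adjusted p was under 0.05. The labels do not say whether replicates came from separate animals or cultures, so these p-values may measure technical spread alone. In bulk RNA, fewer cells of a type and less RNA per cell cannot be told apart. On the first principal component, with 62.3% of the variance, fresh libraries lay at -70.0 to -66.6, cultured ones at 26.7 to 29.2 and IL-1b libraries at 40.2 to 41.8. The 100 most counted genes took 19.5 to 19.7% of counts in fresh and 22.6 to 22.8% in cultured libraries, and mitochondrial genes 1.99 to 2.03% and 2.41 to 2.59%.

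Most genes tested differed between cultured and fresh cells. Of 13043 genes tested 7594 were called, which is 58.2%, with 3829 higher (29.4%) and 3765 lower (28.9%). The 3 cultured libraries lay wholly above or below the 3 fresh ones in 8545 genes (65.5%). Among the 7594 called genes 7389 did so, so that separation adds little to a call. Most differences were modest: 763 genes rose and 891 fell by at least 2-fold, and 235 and 367 by at least 4-fold. With so high a background, the count of any gene group below is to be read against 29.4% higher and 28.9% lower, and against a median log2 fold change over all genes of 0.00.

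**Figure D1:**
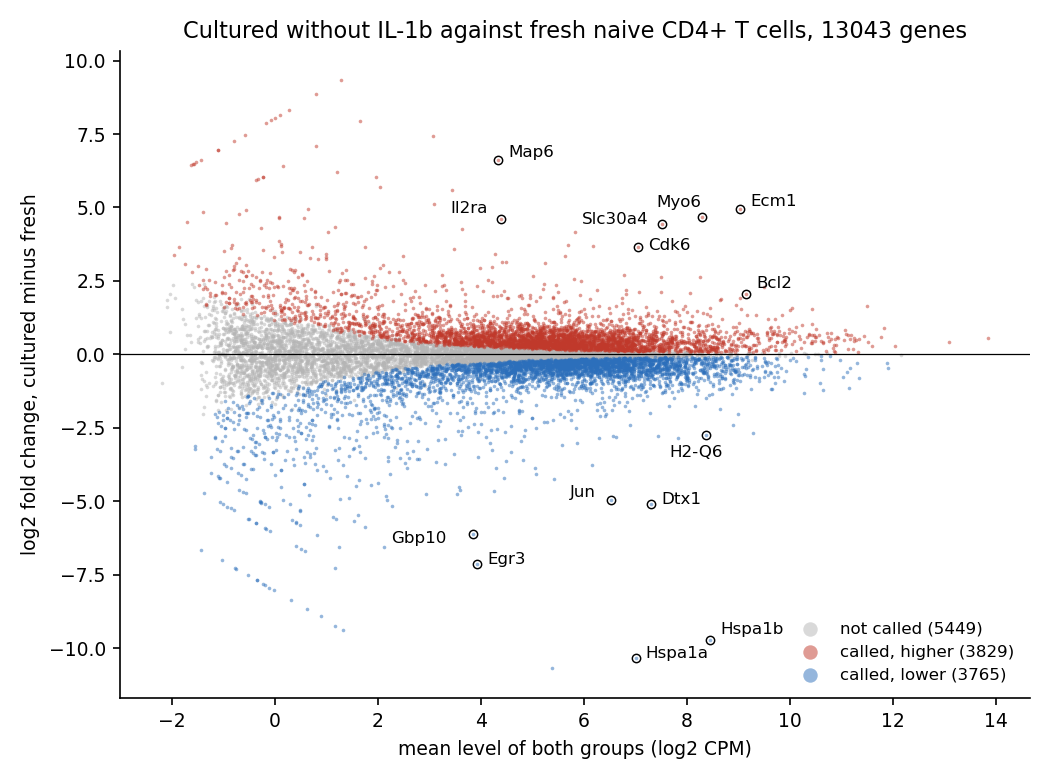
Log2 fold change (cultured minus fresh) against the mean level of both groups (log2 CPM) for the 13043 genes tested, each point 1 gene, coloured by its call. The heat shock genes Hspa1a and Hspa1b lie far below all other labelled genes, while Map6, Ecm1 and Myo6 lead the labelled rises.

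The scale on which genes are compared matters for small changes. TPM values, which divide by transcript length and sum to the same total in each library, put the median gene at -0.21 on the log2(TPM + 0.5) scale, and the sign of 554 of the 7594 called genes turned there. There 1877 genes were called higher and 4842 lower by limma on log2(TPM + 1), against 3829 and 3765 on the count scale. Every direction below is on the count scale, and named genes whose sign turns on the TPM scale are marked. The differences also followed length. In the shortest of 5 equal bins, effective lengths up to 1046 bases, 1006 genes rose and 340 fell (median 0.27). In the longest, from 3526 bases, 612 rose and 1058 fell (median -0.12). After a trend on GC content and length was taken out of each library, 7081 genes were called, among them 6016 of the 7594 with the same direction.

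**Figure D2:**
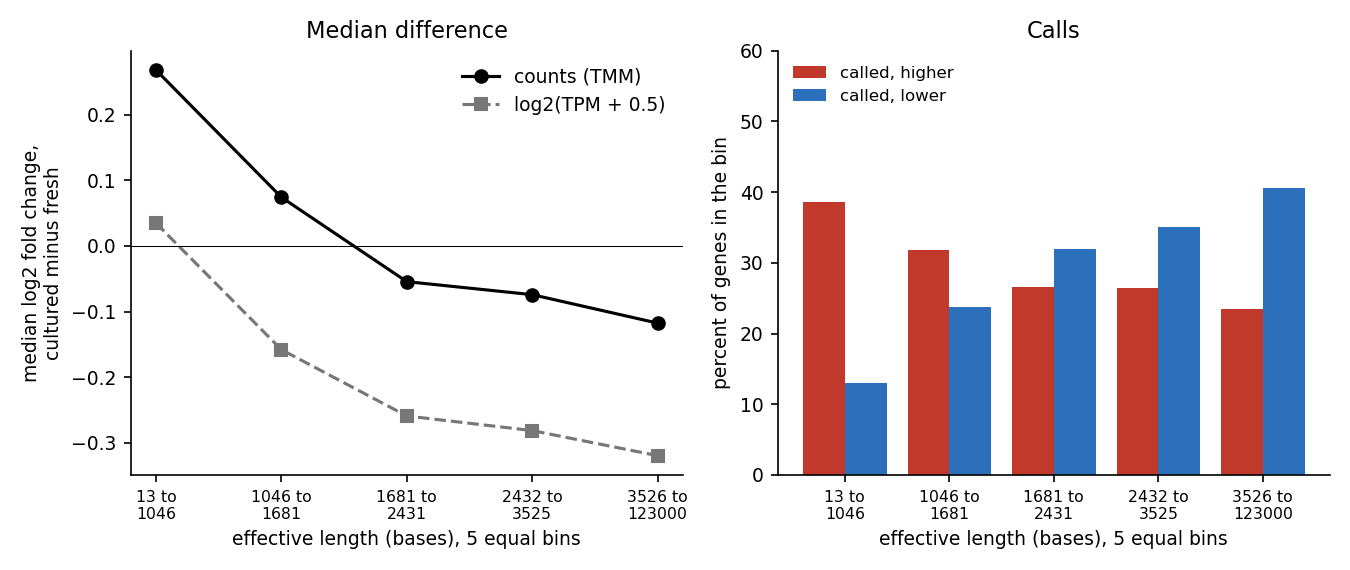
Left, median log2 fold change (cultured minus fresh) of genes in 5 equal bins of effective length in bases, on the count scale and the log2(TPM + 0.5) scale; right, percent of genes in each bin called higher or lower. The median falls from 0.27 to -0.12 on the count scale from the shortest to the longest bin.

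The labelled cell type was present in both groups. The 12 markers of naive CD4 T cells summed to 7210 to 7313 CPM in fresh and 6941 to 6946 CPM in cultured libraries, and each of the 12 was called, 4 higher and 8 lower. The co-receptor gene Cd4 stood at 881, 887 and 900 CPM in fresh libraries and at 579, 581 and 612 CPM in cultured ones, while the CD8 genes Cd8a and Cd8b1 summed to 22.99 to 26.5 CPM in fresh and 47.7 to 59.7 CPM in cultured libraries. Both CD8 genes rose.

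Markers of several other blood cells, though not the CD8 genes, were measurable in fresh libraries and lower in cultured ones. All 20 B cell markers fell, with a median log2 fold change of -3.90, and their sum went from 582 to 694 CPM down to 200 to 210 CPM. Most of that sum was Ighm, the immunoglobulin mu chain, at 354, 386 and 386 CPM in fresh and 191, 183 and 187 CPM in cultured libraries. The B cell receptor chain gene Cd79a fell from 10.5 to 1.35 CPM. Cd74, the invariant chain of MHC class II, stood at 67.7, 91.7 and 85.5 CPM in fresh and at 5.08, 4.15 and 3.74 CPM in cultured libraries, and the class II chains H2-Aa and H2-Ab1 fell 27.1-fold and 24.5-fold. Fresh and cultured libraries did not overlap for any of these genes, nor for 65.5% of all genes tested and 7389 of the 7594 called.

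Neutrophil markers summed to 13.3 to 25.5 CPM in fresh libraries and 0.391 to 0.623 CPM in cultured ones, where 6 of 14 had no count. NK cell markers summed to 62.4 to 70.4 and 15.3 to 20.3 CPM, most of it the perforin gene Prf1, which T cells can also express. Markers of monocytes, macrophages and dendritic cells summed to 51.1 to 57.8 and 44.4 to 46.2 CPM, and 8 of the 11 tested fell. Within that list the lysozyme gene Lyz2 went from 8.39, 10.1 and 7.53 CPM to 0, 0 and 0.249 CPM, while Cst3, a protease inhibitor gene made by many cells, rose from 22.3 to 39.9 CPM. Gamma delta T cell markers summed to 10.7 to 12.7 and 6.99 to 9.28 CPM. Red cell and platelet markers summed to 4.88 to 13.1 and 4.73 to 6.62 CPM, so that the groups overlapped. Stromal and endothelial markers went the other way, from 278 to 293 CPM up to 383 to 388 CPM. Most of that sum was Pecam1, at a mean of 285 and 386 CPM. How much of any decrease below is RNA of these other cells was not tested.

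**Figure D3:**
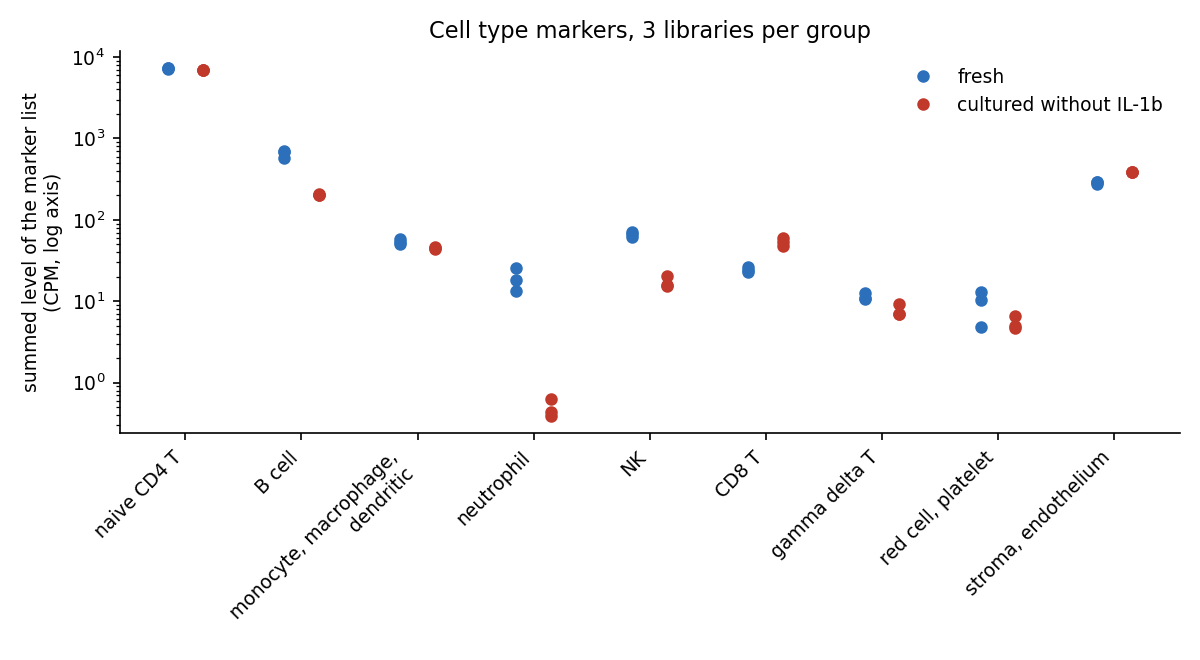
Summed level (CPM, log axis) of 9 marker lists in each of the 3 fresh and 3 cultured libraries, each point 1 library. B cell, neutrophil and NK sums are lower in every cultured library than in every fresh library, CD8 sums are higher, and the naive CD4 sum lies between 6941 and 7313 CPM in all 6 libraries.

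Immediate early genes and inducible chaperones were among the largest decreases. Of 31 immediate early and AP-1 genes 27 passed the filter on low counts, and 23 of these fell and 2 rose, with a median log2 fold change of -1.76. The inducible HSP70 gene Hspa1b stood at 725, 676 and 713 CPM in fresh libraries and at 0.782, 0.433 and 1.25 CPM in cultured ones (log2 fold change -9.73 ± 0.10, adjusted p = 4.27e-26). The cultured libraries held only 12, 7 and 20 counts of Hspa1b, so the ± given here is too small. Its neighbour Hspa1a fell from 257 ± 14.3 to 0.193 ± 0.175 CPM. The 2 genes are near-identical copies that can share reads, so their separate levels are uncertain. In the libraries with IL-1b the 2 genes were also low, at a mean of 2.57 and 0.872 CPM.

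The AP-1 subunit gene Jun was at 190, 175 and 172 CPM in fresh and at 5.41, 6.50 and 5.17 CPM in cultured libraries, a 31.4-fold fall (adjusted p = 2.04e-21). Fos, its partner, was at 140, 140 and 136 CPM and at 19.8, 17.95 and 20.6 CPM (-2.84 ± 0.07). Junb was at 400, 373 and 432 CPM and at 54.8, 52.4 and 60.5 CPM (-2.85 ± 0.06). For all 3 genes the lowest fresh library was several times the highest cultured one.

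The zinc finger genes Egr1 and Egr3, which mark recent receptor signals, fell from 63.7 to 3.77 CPM and from 30.4 to 0.209 CPM. The orphan nuclear receptor Nr4a1, a reporter of T cell receptor signal strength, was at 54.7, 46.9 and 56.0 CPM in fresh and at 3.85, 4.02 and 5.23 CPM in cultured libraries (-3.58 ± 0.16, adjusted p = 1.03e-14). Cd69, the early activation antigen that also holds T cells in the node, fell from 49.7 to 8.32 CPM. Dusp1, a phosphatase that switches MAP kinases off, fell by 2.23, and Ppp1r15a, which restores translation after stress, by 2.77, both on the log2 scale. The exceptions were Klf6, which rose from 147 to 323 CPM, and the small Maf protein gene Maff, which rose from 2.03 to 5.96 CPM.

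Of 16 heat shock chaperone genes tested 9 fell and 3 rose. None of the 3 rises was called with library size scaling alone (0 higher, 10 lower) or on log2(TPM + 1) (0 higher, 12 lower). Hsp90ab1, the constitutive HSP90, fell from 2032, 2060 and 2072 CPM to 1035, 1020 and 1051 CPM, and the co-chaperones Hsph1 and Dnajb1 fell by 1.19 and 1.08 on the log2 scale. Of 16 RNA decay factors 8 fell, 4 rose and 4 were not called (median -0.07). On log2(TPM + 1) 10 of them fell and 1 rose (median -0.49). The 3 of smallest adjusted p on the count scale were paralogs that bind AU-rich elements. Zfp36 fell from 310 to 91.9 CPM, Zfp36l1 from 300 to 123 CPM and Zfp36l2 from 548 to 308 CPM.

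NF-kB target genes were mostly lower. Of 27 listed 24 were tested, 17 fell and 4 rose, with a median of -0.55. Nfkb1, the p105 precursor, fell from 310 ± 12.7 to 153 ± 5.999 CPM, and the nuclear cofactor Bcl3 from 44.1 ± 5.26 to 11.5 ± 0.725 CPM. The ubiquitin editor Tnfaip3 fell by 1.26 ± 0.07 and the inhibitor Nfkbia by 0.35 ± 0.05 on the log2 scale. Tnfrsf4 (OX40), a costimulatory receptor, went the other way, from 4.38, 3.74 and 5.77 CPM to 42.5, 35.3 and 44.0 CPM. The lymphotoxin gene Lta and the mitochondrial superoxide dismutase gene Sod2 rose by 1.32 and 0.66.

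Interferon stimulated genes fell across the list. All 41 passed the filter, 37 fell, 3 rose and 1 was not called, with a median log2 fold change of -1.26. Irf7, a transcription factor that amplifies type I interferon, was at 83.9, 82.4 and 93.3 CPM in fresh libraries and at 21.7, 20.7 and 20.99 CPM in cultured ones (-2.03 ± 0.08, adjusted p = 1.51e-15). Ifi213, a member of the DNA-sensing p200 family, fell 4.002-fold to 62.2 CPM. The groups did not overlap in either gene, nor in 65.5% of all genes tested and 7389 of the 7594 called. The IL-1b libraries had a mean of 20.4 CPM for Irf7.

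Stat2 and Irf9, partners in the factor that interferon activates, fell less, from 89.8 to 60.1 CPM and from 163 to 74.9 CPM. The antiviral effector Ifit1 fell from 20.5 to 6.30 CPM, Oas3 from 31.4 to 5.21 CPM, and the ubiquitin-like modifier Isg15 from 8.21 to 2.85 CPM. The 3 genes that rose were Ifit2, Ifi27l2a and Ifi35, by 0.15, 0.39 and 0.28 on the log2 scale. None of those 3 calls was kept on the TPM scale, where Ifit2 was lower and 0 genes of the list were called higher. The Ifit2 call was also lost with library size scaling alone and without fresh replicate 2 or 3 or cultured replicate 1 or 2.

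Many of these genes carry interferon response letters close to their start. The core of the interferon stimulated response element was searched as GAAANNGAA on both strands, in RefSeq windows from 250 bases before to 50 after each gene start (GRCm38.p6). It was found in 17 of the 31 list genes with a window (54.8%) and in 9.76% of all 27025 genes, or 8.56% of 32851 windows. Matches may overlap each other. The stretches before the start of 4 genes that fell are shown on the gene's strand, with every match in capitals, because they hold several matches in tandem; capitals reading TTC are matches on the opposite strand.

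Ifit1 (chr19:34640765-34640828, plus strand): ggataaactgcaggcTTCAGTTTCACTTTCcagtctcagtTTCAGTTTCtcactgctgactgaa
Ifit3 (chr19:34583359-34583450, plus strand): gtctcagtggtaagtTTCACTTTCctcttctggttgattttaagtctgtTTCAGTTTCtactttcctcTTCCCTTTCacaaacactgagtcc
Isg15 (chr4:156200861-156200911, minus strand): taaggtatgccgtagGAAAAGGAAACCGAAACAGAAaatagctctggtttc
Oas3 (chr5:120777705-120777749, minus strand): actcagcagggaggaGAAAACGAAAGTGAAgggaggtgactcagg

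Ifit3, whose neighbour Ifit3b holds the same 92 bases, fell by 2.25 ± 0.16 on the log2 scale, and reads of these 2 similar genes may be split between them. A match is a description of the letters and not evidence of binding. For the other groups, the cAMP response element TGACGTCA was found in 4 of 27 immediate early genes (14.8%) and in 2.03% of all genes. The NF-kB core GGGANTTTC was found in 3 of 22 NF-kB targets (13.6%) against 1.29%, and the sterol element core TCACCCCA in 2 of 17 sterol genes (11.8%) against 1.77%.

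GTPases and antigen presentation genes induced by interferon gamma were also lower. Of 17 guanylate-binding and immunity-related GTPases 13 fell and 3 rose. Gbp6 was at 153, 155 and 135 CPM in fresh and at 40.5, 41.0 and 37.7 CPM in cultured libraries, Irgm1 fell from 128 to 36.5 CPM and Iigp1 from 82.8 to 21.5 CPM. Gbp10 went from 28.5 ± 1.64 CPM to 0.406 ± 0.425 CPM. Its paralog Gbp11, which was on no list, moved in the opposite direction, from 10.2, 9.50 and 11.9 CPM to 131, 134 and 137 CPM. Reads may be split within this family, so these levels are uncertain. Igtp and Ifi47 rose by 0.62 and 0.41 on the log2 scale, as did Gbp4 by 0.23, which was lower on the TPM scale.

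Of 19 genes of MHC class I and its peptide loading 17 fell and 1 rose, with a median of -0.59. The nonclassical genes H2-Q7 and H2-Q6 fell most in the list by adjusted p. H2-Q7 was at 2284, 2235 and 2250 CPM in fresh and at 999, 942 and 979 CPM in cultured libraries, and H2-Q6 fell from 574.8 to 86.5 CPM. The peptide transporter gene Tap1 fell from 487 ± 7.04 to 239 ± 4.61 CPM, its partner Tap2 by 0.81 ± 0.04 and the class I transactivator Nlrc5 by 0.81 ± 0.03 on the log2 scale. The classical genes H2-K1 and H2-D1 fell by 0.31 and 0.59. Class I genes are near copies of each other, and their separate levels are uncertain. B2m, the light chain, rose by 0.37 ± 0.03, but changed by -0.16 once GC content and length were accounted for. B cells, whose markers fell here, also make MHC class I; that part was not tested.

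**Figure D4:**
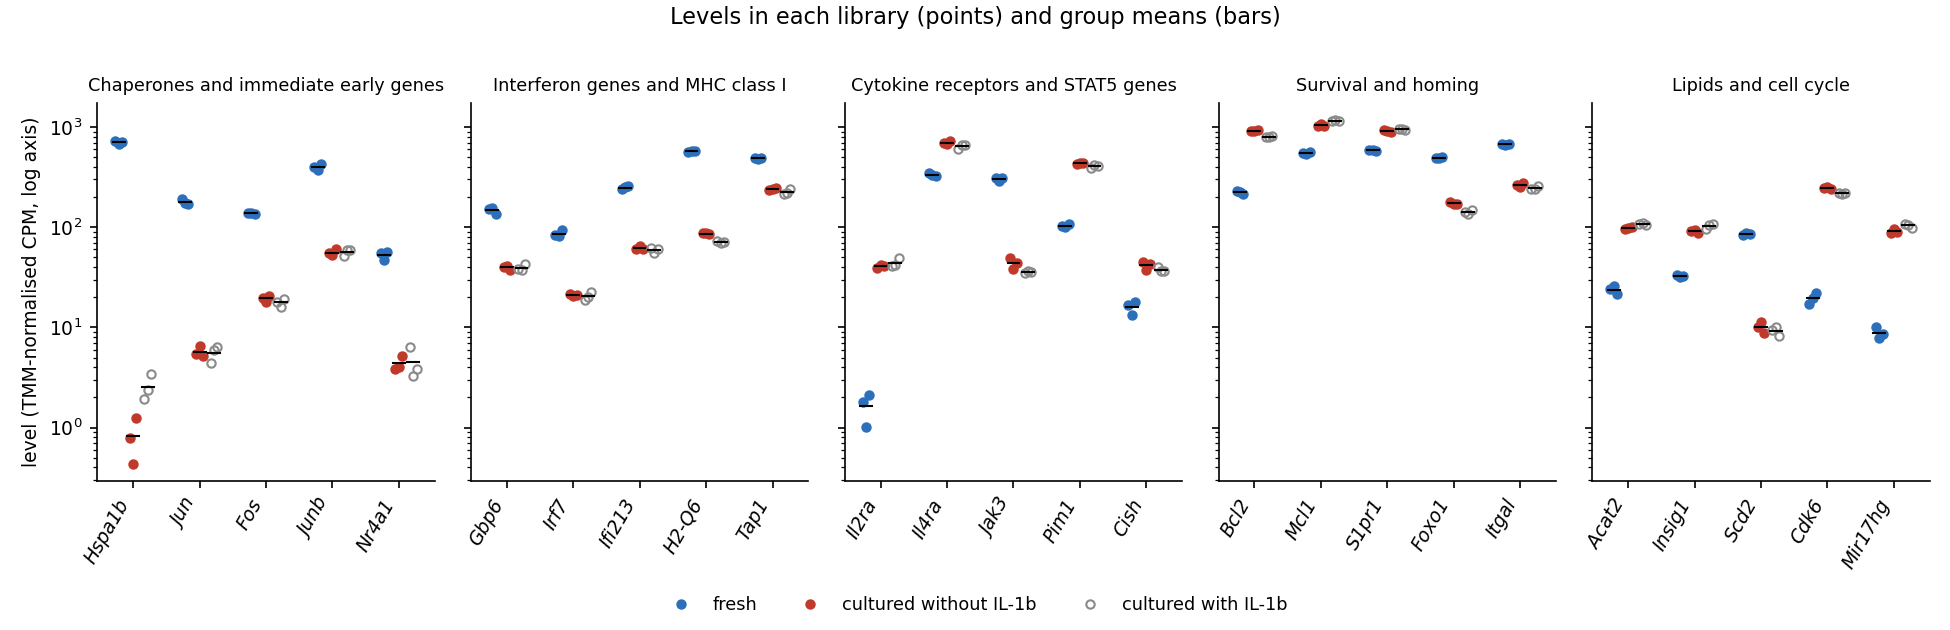
Level of 25 genes in 5 groups in each library (points, TMM-normalised CPM on a log axis) with group means (bars), for fresh cells, cells cultured without IL-1b and cells cultured with IL-1b. Fresh and cultured libraries do not overlap for any gene shown, nor for 65.5% of all genes tested and 7389 of the 7594 called.

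Genes of the common gamma chain pathway changed in opposite directions. Il2ra (CD25), the high-affinity chain of the interleukin-2 receptor, was at 1.82, 1.01 and 2.11 CPM in fresh and at 39.0, 42.2 and 41.0 CPM in cultured libraries, a 24.6-fold rise (4.62 ± 0.15, adjusted p = 3.64e-17). The beta chain Il2rb rose from 23.8 to 33.5 CPM, a call not kept on the TPM scale, and Il4ra, the interleukin-4 receptor, from 347, 333 and 327 CPM to 698, 677 and 719 CPM. The shared chain Il2rg fell by 0.37 ± 0.03, and the interleukin-7 receptor Il7r by 0.16 ± 0.03, from 576 to 516 CPM.

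The kinase Jak3, which binds the gamma chain, fell from 313, 292 and 312 CPM to 49.3, 38.6 and 44.2 CPM (-2.79 ± 0.06, adjusted p = 2.83e-20). Stat3 fell from 327 to 148 CPM, Stat5a by 1.02 ± 0.06 and the interleukin-21 receptor Il21r by 1.41 ± 0.05. Il6st (gp130), the signalling chain of interleukin-6, fell from 514 to 312 CPM. In the whole list of 15 tested genes 11 fell and 3 rose.

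A list of STAT5 induced and feedback genes, which also holds the repressor gene Bcl6, had 5 of 9 higher and 3 lower, with a median of 0.73. The kinase gene Pim1 was at 102, 102 and 107 CPM in fresh and at 429, 439 and 438 CPM in cultured libraries (2.07 ± 0.04, adjusted p = 5.89e-22). The feedback inhibitor Cish was at 16.6, 13.4 and 18.02 CPM and at 44.7, 37.8 and 42.5 CPM. Socs2 was near the floor in fresh libraries, at 0.0414, 0.0594 and 0.422 CPM, and at 8.86, 6.62 and 8.66 CPM after culture. Bcl6, a repressor that STAT5 is known to turn off, is among the 3 counted lower and fell from 29.9 to 4.26 CPM. Each of these 4 genes separated the groups completely, as did 65.5% of all genes tested and 7389 of the 7594 called.

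Of 5 Bcl2 family survival genes tested 2 rose and 2 fell (median 0.19). Bcl2, the main survival factor of resting T cells, was at 229, 223 and 217 CPM in fresh and at 922, 911 and 936 CPM in cultured libraries, a 4.14-fold rise (adjusted p = 1e-23). Mcl1 rose from 553 ± 12.6 to 1042 ± 15.2 CPM. The survival genes Bcl2l1 and Bcl2a1b, both low, fell by 0.40 and 0.60 on the log2 scale. Bcl2l1 lost its call without fresh replicate 1 or cultured replicate 1 or 2, and with GC content and length accounted for, and Bcl2a1b without fresh replicate 2 or 3 or any single cultured library, with voom and with no filter on low counts. Of 8 Bcl2 family death genes tested 5 rose and 1 fell, and 3 rose and 2 fell on log2(TPM + 1). Bcl2l11 (Bim), which counteracts Bcl2, was at 74.5, 70.9 and 71.5 CPM and at 142, 143 and 136 CPM, and the pore former Bax rose by 0.62 ± 0.07. The other pore former, Bak1, fell by 0.69 ± 0.11.

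T cell receptor genes and the kinases beneath the receptor were lower more often than higher, with 18 of 29 down and 8 up (median -0.43). The inhibitory co-receptors Cd5 and Cd6, whose level is known to follow self-recognition, led the decreases by adjusted p. Cd5 was at 423, 414 and 426 CPM in fresh and at 186, 179 and 174 CPM in cultured libraries, and Cd6 at 511, 502 and 500 CPM and at 195, 184 and 199 CPM. Lck and Zap70, the first kinases of the pathway, fell by 0.70 and 0.71 on the log2 scale. Rasgrp1, an activator of Ras, rose from 505 ± 10.97 to 1168 ± 5.26 CPM.

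Transcription factors of the naive state were lower in 13 of 19 cases and higher in 3 (median -0.59). Foxo1, which keeps the homing and Il7r genes on, was at 485, 493 and 503 CPM in fresh and at 180, 172 and 171 CPM in cultured libraries (-1.50 ± 0.04, adjusted p = 3.42e-19). Tcf7 fell from 1575 to 953 CPM, Bcl11b by 0.95 ± 0.03 and Satb1 by 0.63 ± 0.03. Myb, another regulator of the naive pool, fell from 52.2 to 11.6 CPM. Klf2, which drives exit from lymphoid tissue, went from 359 ± 15.4 to 413 ± 31.3 CPM, but was lower on the TPM scale.

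Of 19 homing and adhesion genes tested 10 rose and 6 fell, and on log2(TPM + 1) 6 rose and 6 fell. The egress receptor S1pr1, which lets cells leave the node, was at 583, 593 and 581 CPM in fresh and at 944, 905 and 901 CPM in cultured libraries (0.65 ± 0.03). Ccr7, which guides cells into the T zone, rose from 441 to 536 CPM, a difference of 0.04 on the TPM scale that was not called there. Both chains of the integrin LFA-1 fell: Itgal was at 675, 669 and 684 CPM and at 262, 252 and 274 CPM, and Itgb2 fell from 517 to 202 CPM. The gut-homing integrin chain Itgb7 fell by 0.93 ± 0.04. The hyaluronan receptor Cd44, a marker of antigen-experienced cells, fell from 20.2 ± 2.85 to 3.28 ± 1.09 CPM.

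Several genes named for regulatory T cells were higher, and others of the same list were lower. Of 13 tested 9 rose and 3 fell, with a median of 1.199. Tnfrsf18 (GITR) was at 30.0, 30.6 and 28.3 CPM in fresh and at 191, 189 and 196 CPM in cultured libraries, and Ctla4, which competes for costimulatory ligands, at 3.60, 4.87 and 4.58 CPM and at 36.2, 42.4 and 36.1 CPM. The ectoenzyme gene Nt5e (CD73) rose by 1.199 ± 0.06. The lineage factor Foxp3 stayed low, at 1.199, 2.26 and 1.76 CPM and at 4.63, 2.23 and 4.30 CPM, so that the groups overlapped, and its call (adjusted p = 0.00852) was lost on the TPM scale and without cultured replicate 1 (log2 fold change 0.92). Ikzf2 (Helios) and Izumo1r (folate receptor 4), also typical of regulatory cells, fell by 2.001 and 1.17 on the log2 scale, the first a call lost on log2(TPM + 0.1). Il2ra, Ctla4, Tnfrsf18 and Tnfrsf4 are also known as activation-induced genes of conventional T cells.

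Memory and effector genes fell in 10 of 17 cases and rose in 3, and 11 of the 28 listed had too few counts to test. Gata3, which directs T helper 2 cells, fell from 55.6 to 20.8 CPM and Prf1 from 52.2 to 11.7 CPM. Eomes, a factor of memory and NK cells, was at 9.01, 9.56 and 9.01 CPM in fresh and at 0.456, 1.49 and 1.43 CPM in cultured libraries. NK cell markers fell alongside (62.4 to 70.4 CPM against 15.3 to 20.3 CPM, a sum that includes Prf1 and Eomes), and their part was not tested. The repressor gene Prdm1 and Id2 rose by 1.36 and 0.71. The inhibitory receptor Pdcd1 (PD-1) fell from 5.22 to 0.545 CPM, within a list of 9 tested inhibitory receptors of which 7 fell and only Ctla4 rose.

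Notch and TGF-beta signalling genes gave single large changes. Dtx1 (Deltex1), a Notch target tied to T cell anergy, was at 314, 297 and 318 CPM in fresh and at 9.32, 9.16 and 8.91 CPM in cultured libraries, a 33.9-fold fall (adjusted p = 1.02e-22). Notch1 itself fell from 338 ± 7.83 to 181 ± 8.20 CPM. Of 15 Notch pathway genes tested 6 fell, 1 rose and 8 were not called. These counts depended on the scale: 9 fell and 0 rose on log2(TPM + 1). After GC content and length were accounted for, 4 fell and 5 rose. Of 17 TGF-beta pathway genes tested 9 fell and 7 rose, and on log2(TPM + 1) 9 fell and 3 rose. With GC content and length accounted for, 7 fell and 7 rose (median 0.06). The type I receptor Tgfbr1 rose from 47.2 to 71.2 CPM. The related receptor Acvrl1 (ALK1), outside that list, fell from 41.5 to 2.20 CPM, Tgfbr2 from 527 to 302 CPM and the inhibitory Smad7 from 193 to 90.0 CPM.

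Most sterol genes rose. Of 24 genes of sterol synthesis and uptake 16 rose, 3 fell and 5 were not called, with a median of 0.59. On log2(TPM + 1) 15 rose and 3 fell (median 0.33), and 18 rose and 0 fell once GC content and length were accounted for. Acat2, a thiolase at the entry of the pathway, was at 24.3, 25.8 and 21.5 CPM in fresh and at 94.9, 97.9 and 99.7 CPM in cultured libraries (2.02 ± 0.06, adjusted p = 1.96e-17). Insig1, the sterol sensor that holds SREBP back, was at 33.4, 32.1 and 32.5 CPM and at 90.9, 94.6 and 87.2 CPM. The demethylase Msmo1 and the isomerase Idi1 rose by 1.24 and 0.98. Srebf2, the regulator of these genes, fell by 0.14 ± 0.03, but changed by 0.29 with GC content and length accounted for.

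Scd2, a stearoyl-CoA desaturase, was at 83.6, 87.7 and 85.2 CPM in fresh and at 10.1, 11.4 and 8.72 CPM in cultured libraries, and Scd1 fell from 7.01 to 0.314 CPM. The elongases Elovl5 and Elovl6 rose by 0.97 and 1.15, within a fatty acid list of 12 in which 3 rose and 7 fell. With GC content and length accounted for, 5 of that list rose and 5 fell (median 0.08). Of 7 LXR and sterol export genes tested 3 fell, 1 rose and 3 were not called. The cholesterol exporter Abca1 was at 23.8, 27.7 and 28.6 CPM and at 3.91, 4.27 and 4.48 CPM. Abcg1 fell from 135 to 70.5 CPM and Mylip, a ubiquitin ligase, from 81.9 to 44.0 CPM. The 1 gene of that list that rose was the phosphodiesterase Smpdl3a, from 54.8 to 73.9 CPM, a call not kept on the TPM scale. Srebf1, a regulator of fatty acid genes, fell by 0.74 on the log2 scale.

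Ribosomal protein, proteasome and respiratory chain messengers were mostly higher. Of 80 ribosomal protein genes 76 rose and 3 fell, with a median of 0.59 on the count scale and 0.34 on the TPM scale. Rpl24 was at 334, 330 and 315 CPM in fresh and at 808, 847 and 807 CPM in cultured libraries, and Rps6 rose from 1689.7 to 2715 CPM. Those that fell were Rplp2 (-0.48), Rpl22l1 (-0.21) and Rps2 (-0.07), the last a call lost in 7 of 21 alternative settings, 6 of which left out 1 library. These are short genes with many pseudogenes, and short genes as a class were higher here (median 0.27). With GC content and length accounted for, 74 ribosomal protein genes rose and 5 fell, with a median of 0.36. Of 28 translation factors 14 rose and 7 fell, but 10 rose and 13 fell on log2(TPM + 1): the initiation factor subunit Eif3e rose from 229 to 456 CPM and the scaffold Eif4g1 fell from 515 to 351 CPM. Of 32 ribosome assembly genes 13 rose and 12 fell (median -0.01), but 8 rose and 14 fell on log2(TPM + 1) (median -0.31).

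Among 31 proteasome subunits 27 rose and 1, the regulatory particle subunit Psmd3, fell (median 0.56, and 0.28 on the TPM scale). The Psmd3 call was lost with GC content and length accounted for. Psma5 was at 35.7, 36.8 and 37.6 CPM in fresh and at 70.0, 71.1 and 70.2 CPM in cultured libraries. In contrast, the interferon-inducible subunit Psmb9, counted with MHC class I, fell from 172 to 83.1 CPM. Of 37 nuclear respiratory chain genes 25 rose and 4 fell (median 0.36), led in adjusted p by Uqcrc2 of complex III, from 103 ± 4.07 to 162 ± 3.88 CPM. Their median was 0.06 on the TPM scale and 19 rose with length and GC accounted for. Of 13 mitochondrially encoded messengers 10 rose and 0 fell (median 0.40), but with length and GC accounted for 5 rose and 5 fell (median 0.02).

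Among 25 autophagy and lysosome genes 14 rose and 2 fell (median 0.30), and 9 rose and 5 fell on log2(TPM + 1): the lysosomal membrane gene Lamp2 rose from 20.6 to 46.1 CPM, and Map1lc3b (LC3B), the autophagosome tag, from 101 to 153 CPM. Of 11 tested hypoxia response genes 8 rose and 1 fell (median 0.75). Ndrg1 was at 14.4, 13.1 and 16.7 CPM in fresh and at 51.8, 55.0 and 62.1 CPM in cultured libraries, and the collagen hydroxylase P4ha1 rose 2.25-fold. Glycolysis genes were split, with 9 up and 9 down of 23, and 5 up and 11 down on log2(TPM + 1). Eno1 rose from 524 to 1335 CPM, while Hk1 and the pyruvate dehydrogenase kinase gene Pdk1 fell by 0.80 and 0.60.

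Cell cycle genes gave no common direction, with 10 of 36 higher, 7 lower and 19 not called, and 5 higher and 8 lower on log2(TPM + 1). The proliferation marker Mki67 was at 6.61 CPM in fresh and 6.68 CPM in cultured cells (log2 fold change 0.03, adjusted p = 0.921), with a sign that depended on the setting. Cdk6, the kinase that drives resting T cells towards division, was an exception, at 17.2, 19.5 and 22.2 CPM in fresh and at 244, 253 and 240 CPM in cultured libraries, a 12.7-fold rise (3.67 ± 0.06). The cyclin-dependent kinase inhibitor Cdkn1b (p27) rose from 225 to 384 CPM at the same time, and the replication clamp Pcna from 103 to 169 CPM. Ccnd2, the cyclin D of T cells, fell by 0.43.

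Mir17hg, the host transcript of the miR-17-92 cluster, was among the largest rises. It was at 10.1, 7.90 and 8.59 CPM in fresh and at 87.6, 95.0 and 90.1 CPM in cultured libraries (3.34 ± 0.08, adjusted p = 1.55e-19), and at a mean of 104 CPM with IL-1b. These libraries count the host transcript, not the mature miRNAs. The cluster is known to promote survival and proliferation of lymphocytes and to target Bcl2l11, which rose here. The 6 mature miRNAs of its main arms, on the plus strand of chromosome 14, are given from RefSeq (GRCm38.p6), with the seed, bases 2 to 8, in capitals, because the seed groups them into 4 families.

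miR-17-5p (chr14:115043684-115043706): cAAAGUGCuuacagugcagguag
miR-20a-5p (chr14:115044183-115044205): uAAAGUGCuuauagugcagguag
miR-18a-5p (chr14:115043867-115043889): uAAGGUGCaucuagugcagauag
miR-19a-3p (chr14:115044048-115044070): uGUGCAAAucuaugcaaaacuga
miR-19b-3p (chr14:115044358-115044380): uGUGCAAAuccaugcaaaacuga
miR-92a-3p (chr14:115044476-115044496): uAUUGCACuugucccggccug

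The first 2 share 1 seed and the pair of miR-19 another, while miR-18a and miR-92a each have their own.

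Among the larger rises outside the lists were genes with varied roles. Map6, a microtubule stabiliser, went from 0.455, 0.297 and 0.422 CPM to 39.6, 39.7 and 41.1 CPM. Ecm1, a secreted matrix protein, was at 35.1, 30.8 and 33.2 CPM in fresh and at 1012, 993 and 1037 CPM in cultured libraries, a 30.6-fold rise. The myosin motor Myo6 was at 24.0, 22.4 and 25.9 CPM and at 616, 609 and 604 CPM. All 3 were also high with IL-1b, at a mean of 32.6, 819 and 733 CPM.

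Slc30a4, which exports zinc from the cytosol, was at 13.9, 18.9 and 16.1 CPM in fresh and at 340, 361 and 356 CPM in cultured libraries (4.45 ± 0.06). The zinc importer Slc39a10 rose by 0.87 and the endoplasmic reticulum zinc channel Slc39a7 fell by 0.59, while of 18 zinc genes tested 8 rose and 4 fell, and 3 rose and 6 fell on log2(TPM + 1). The adhesion molecule Jaml rose 17.9-fold, the lipid receptor Gpr34 13.2-fold and Rgs1, which dampens chemokine receptors, 10.6-fold. Of 13 Schlafen and Ly6 genes tested 8 fell and 2 rose (median -0.92). Slfn5 fell from 190.2 to 100.3 CPM, Slfn8 from 185 to 91.3 CPM and the interferon-inducible Ly6e from 683 to 309 CPM. The 2 that rose were Slfn2, which is known to hold T cells at rest, from 369 to 930 CPM, and Slfn1, from 276 to 793 CPM.

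Stress and hormone pathways gave mixed lists. Ddit4 (REDD1), an mTOR inhibitor induced by glucocorticoids and stress, was at 110, 96.5 and 106 CPM in fresh and at 13.8, 12.4 and 12.1 CPM in cultured libraries. Of 12 glucocorticoid-induced genes tested 6 fell and 4 rose: Sgk1 fell by 1.33 and Fkbp5 by 0.55, while Tsc22d3 (GILZ) rose from 170 to 365 CPM. Among 16 tested ATF4 stress genes 10 fell and 4 rose; the pseudokinase Trib3 rose from 4.34 to 33.1 CPM and the folate enzyme Mthfd2 fell from 53.1 to 25.4 CPM. Of 20 p53 targets 8 rose and 3 fell, but 7 rose and 6 fell with library size scaling alone and 5 rose and 7 fell on log2(TPM + 1). Among them Sesn1 rose 2.73-fold and the death receptor gene Fas 2.05-fold.

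Of 15 circadian genes tested 6 rose and 4 fell (3 and 5 on log2(TPM + 1)), with Nr1d2 up from 41.1 to 73.4 CPM, Per3 up from 3.04 to 8.57 CPM and Per2 down from 11.5 to 3.60 CPM. The hour of day at which the 2 groups were collected is not given in the sources used here, so culture and hour cannot be told apart for these genes.

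**Figure D5:**
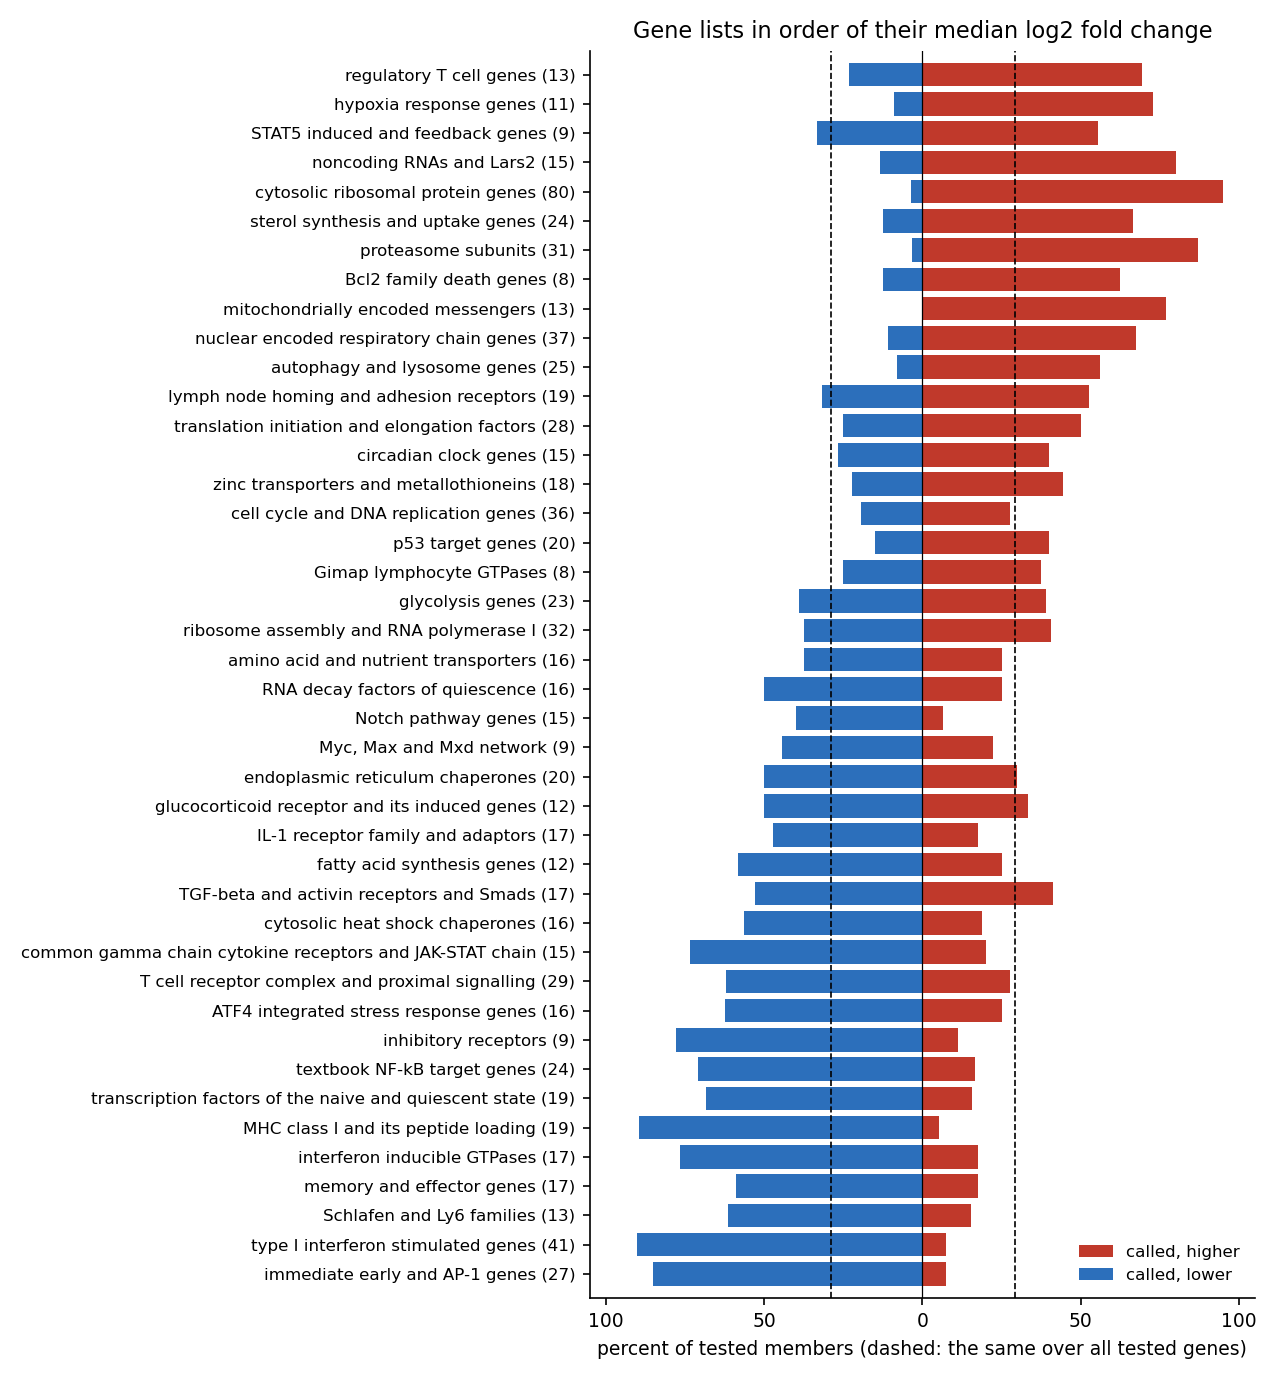
Percent of tested members called higher (right) and lower (left) in each gene list with at least 8 tested members, in order of the list's median log2 fold change, with the number tested in brackets. Dashed lines mark the background of all genes, 29.4% higher and 28.9% lower; interferon stimulated, immediate early and MHC class I lists lie far beyond it on the lower side and ribosomal protein and proteasome lists on the higher side.

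Loci resembling ribosomal RNA were counted more often in the cultured libraries. They took 0.259 to 0.269% of counts in fresh, 0.570 to 0.586% in cultured and 0.220 to 0.229% in IL-1b libraries. CT010467.1, annotated as ribosomal RNA, was at 1399, 1418 and 1409 CPM in fresh and at 4476, 4258 and 4502 CPM in cultured libraries, against a mean of 1026 CPM with IL-1b. Lars2, a mitochondrial tRNA synthetase gene with sequence resembling ribosomal RNA, rose from 121 to 380 CPM. These were libraries of polyadenylated RNA, and the part of library preparation in these values was not tested. The nuclear Neat1, which forms paraspeckles, rose from 461 to 760 CPM in cultured cells and stood at a mean of 714 CPM with IL-1b.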

How the data were processed

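The 9 libraries were made from polyadenylated RNA with a directional kit, per the labels' protocols. Reads were aligned with STAR and quantified per gene with RSEM on mm10, per the submitters' processing notes; versions and the strand setting of the counting are absent from the sources used here. The authors deposited expected counts per gene, in which reads that fit several genes are shared among them, so near-identical copies are uncertain. The authors deposited TPM values from the same step, which divide by effective length.

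Expected counts were rounded, and 13043 of 55487 gene IDs passed edgeR's filterByExpr. Groups were compared with edgeR 4.0.16 (glmQLFit, glmQLFTest, TMM scaling, all 9 libraries, no covariate besides group) in R 4.3.3, at a Benjamini-Hochberg adjusted p under 0.05. TPM values were compared as log2(TPM + 0.5), and with limma 3.58.1 at pseudocounts of 1 and 0.1. DESeq2 1.42.0 and voom were alternatives. On simulated counts the test recovered 18, 72, 76 and 96% of genes changed 1.2-, 1.5-, 2- and 4-fold. Every simulated 1.2- and 1.5-fold change was a rise and every 2- and 4-fold change a fall, so fold and direction cannot be told apart. The simulation changed 50 genes per fold, as many up as down in all, with 1 spread for every gene. It therefore could not test the scaling where most genes differ, as they do here. Symbols were found for 55227 IDs. Promoter and miRNA sequences came from RefSeq tables of GRCm38.p6.

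The comparison, the 53 gene lists and the marker lists were chosen with earlier results of these data known. Named genes were those of largest rise or fall with a mean of at least 20 CPM in 1 group and no overlap between groups, up to 3 members of smallest adjusted p in each list, members on which a count turns, and a panel of textbook genes; some further list members were named after their values were seen. Some list members are not reported here.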

Additional observations from a re-analysis of the deposited data

How the results depend on the processing

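Over 22 alternative settings the number of genes called ranged from 6558 to 7903, against 7594, and the number called with at least a 2-fold change from 1256 to 1866. Genes called higher dropped from 3829 to 1877 with limma on log2(TPM + 1) and to 1861 on log2(TPM + 0.1), the scale whose median gene lies below 0. DESeq2 called 7474 genes. Leaving out 1 library at a time gave 7035 to 7835 calls. A replicate block gave 7485 calls; same-numbered fresh and cultured libraries did not deviate together (correlations of 0.007, -0.011 and 0.01), so the numbers were not taken to pair them. Of the named genes, the sign turned on log2(TPM + 1) and log2(TPM + 0.1) for Gbp4 (-0.0795 and -0.07996), Ifit2 (-0.1024 and -0.1044), Klf2 (-0.04047 and -0.04059) and Mki67 (-0.004275 and -0.006245). Mki67 was also at -0.02486 with library size scaling alone and ranged from -0.1354 to 0.1615 when 1 library was left out. With GC content and length accounted for, B2m changed by -0.1613 and Srebf2 by 0.2886. The cause of these shifts was not tested. The number of libraries, 3 a group, and a floor of 0.130 to 0.222 CPM for 3 counts limit what can be said of genes near 0 in 1 group, such as Socs2, Egr3, Gbp10 and Lyz2.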
